A study of Homo sapiens with 19 samples.

Results

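ADAR and ADARB1, the genes of the RNA editing enzymes ADAR1 and ADAR2, were followed through 19 RNA-sequencing libraries of HepaRG cells, a human hepatic cell line whose differentiated cultures hold hepatocyte-like cells beside biliary-like ones. They were taken by symbol and are 2 of the 78894 genes in the count table. Both passed the filter on low counts, which left 23121 genes for testing. The libraries came in a pair of batches and were compared within batch. The question was how far each siRNA lowered its target, whether it moved the other enzyme, and what interferon and BX795 did to both.

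Batch 1 held 3 libraries of cells given ADAR siRNA, 3 given ADARB1 siRNA and 3 given a control siRNA (siNC). Batch 2 held 2 libraries of cells given interferon alpha (IFNa, 1000 U/mL), 3 given BX795 (1 µM), 2 given BX795 with ADAR siRNA, and 3 siNC controls of its own. BX795 is an inhibitor of the kinases TBK1 and IKK epsilon, which act downstream of sensors of foreign nucleic acid. Every siRNA was used at 20 nM in cells already differentiated in 12-well plates, and the medium was changed at 24 h and 48 h. It is not stated whether cells given IFNa or BX795 alone were also transfected with siNC. Nor is it stated that the libraries of a group came from separate cultures, so p-values measure the spread between these libraries and no more. HepaRG is 1 line, which limits what the groups can stand for.

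ADAR and ADARB1 proteins change adenosine to inosine within double-stranded RNA, and inosine is read as guanosine. Most editing in human tissues lies in inverted repeats and is the work of ADAR, which keeps cellular double-stranded RNA from setting off sensors such as MDA5 and PKR. ADAR makes a short form from a constitutive promoter and a long form from a promoter that responds to interferon. ADARB1 is best known for recoding glutamate receptor transcripts in the brain and edits its own pre-mRNA. The counts are per gene, so both forms of ADAR are added together in every value here.

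In the GENCODE annotation of GRCh38, ADAR (ENSG00000160710.19) lies on the minus strand at chr1:154582057-154628013, with 12 coding transcripts and an exon union of 9691 bases. ADARB1 (ENSG00000197381.18) lies on the plus strand at chr21:45073853-45226560, with 7 coding transcripts and an exon union of 10049 bases. No gene on the opposite strand overlapped ADAR. The ADARB1 interval holds SSR4P1 and AL133499.1 on the opposite strand, with no more than 1 count in any library. The 250 bases before the RefSeq starts (GRCh38.p14) are shown for the outer and inner start of ADAR and for the first start of ADARB1, because ADAR and ADARB1 differed in their response to IFNa. Capitals mark GAAA on either strand (TTTC where it is read on the other), the half-site of the interferon-stimulated response element.
ADAR, chr1:154627998-154628247, minus strand: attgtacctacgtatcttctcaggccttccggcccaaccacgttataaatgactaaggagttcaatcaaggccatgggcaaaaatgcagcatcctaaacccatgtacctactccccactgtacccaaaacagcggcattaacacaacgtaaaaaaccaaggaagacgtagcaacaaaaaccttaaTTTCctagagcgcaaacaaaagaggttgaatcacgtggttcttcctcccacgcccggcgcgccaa
ADAR, chr1:154608798-154609047, minus strand: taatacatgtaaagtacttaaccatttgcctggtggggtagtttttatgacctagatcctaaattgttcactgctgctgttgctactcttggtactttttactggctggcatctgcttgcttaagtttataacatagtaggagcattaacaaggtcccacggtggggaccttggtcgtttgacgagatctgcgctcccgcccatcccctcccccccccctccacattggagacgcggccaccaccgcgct
ADARB1, chr21:45074328-45074577, plus strand: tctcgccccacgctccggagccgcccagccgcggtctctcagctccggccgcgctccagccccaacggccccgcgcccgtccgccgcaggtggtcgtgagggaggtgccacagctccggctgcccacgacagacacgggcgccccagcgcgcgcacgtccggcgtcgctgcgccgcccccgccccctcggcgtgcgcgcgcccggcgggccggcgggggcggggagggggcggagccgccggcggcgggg
RefSeq gave 3 windows for ADAR and 4 for ADARB1, and some of them overlap. None of the 7 held the paired element, GAAA followed by NN and again GAAA, which 3.02% of all 35116 promoter windows of this length hold on either strand. None held the gamma-activated element TTCNNNGAA (6.57% of windows) or the cyclic AMP element TGACGTCA (1.65%). The outer ADAR window had 1 GAAA half-site, a motif found in 82.6% of windows, and the inner window had 0. Of the ADARB1 windows, the one at chr21:45152280-45152529 also had 1, with a GC content of 56.8%, and the other 3 had 0. A missing match says only that these letters are not in this window. The ADARB1 window shown had a GC content of 83.6%, and the ADAR windows shown had 47.2% and 50.4%.

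Total counts per library were 42.7 to 77.1 M in batch 1 and 13.1 to 34.7 M in batch 2. Replicates differed by more than counting noise in every group. A GC contrast was the mean log2 level of genes with GC-rich transcripts less that of GC-poor ones, centred on the batch mean. In batch 2 it was 0.27 to 1.06 in siNC libraries, against -0.67 to -0.23 in BX795 libraries. In batch 1 it lay between -0.09 and 0.11, around that batch's own mean. Summed over the 12 genes listed, hepatocyte markers stood at a high level in every group. The sum was 57320 to 81490 CPM (counts scaled to the normalised library total) in batch 1 and 9825 to 16480 CPM in batch 2. Not every marker was high in batch 2. Mean levels in its siNC libraries were 1.54 CPM for CYP3A4 and 2.38 CPM for CYP2E1. CYP2E1 was at 0.914 CPM with BX795 and 0.505 CPM with BX795 and ADAR siRNA. CYP3A4 went the other way, to 71.9 CPM with BX795 and 103 CPM with BX795 and ADAR siRNA. The 6 tested biliary and progenitor markers summed to 541.7 to 1106 CPM in batch 1 and 204.5 to 370.6 CPM in batch 2. EPCAM, another such marker, did not pass the filter on low counts and was at 0 in all groups except ADARB1 siRNA.

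ADAR siRNA lowered its target in every library that received it. ADAR stood at 62.6, 60.6 and 70.6 CPM after ADAR siRNA, against 260, 261 and 264 CPM in siNC (CPM scaled by TMM, the trimmed mean of M-values). The 3 knockdown libraries were all far below the 3 controls and close to one another. ADAR averaged 64.6 ± 5.32 CPM after ADAR siRNA and 262 ± 2.26 CPM in siNC (SD, n = 3 each). The log2 fold change was -2.02 ± 0.08 (SE), with an adjusted p of 1.19e-11 by edgeR's quasi-likelihood test, adjusted over all tested genes by the Benjamini-Hochberg method. That left 24.7% of the control level, with a 95% confidence interval of 21.9 to 27.8%. Of all tested genes 21.8% were called in this comparison and 10.8% were lower. ADAR ranked 5th by p and 189th by the size of the fall. From gene counts in bulk RNA, fewer cells that express ADAR and less ADAR RNA per cell cannot be told apart.

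ADARB1 siRNA also lowered its target in every library, though less far. ADARB1 stood at 11.1, 10.3 and 11.3 CPM after ADARB1 siRNA, against 33.5, 31.4 and 33 CPM in siNC. The groups did not overlap, and the values within each lay close together. ADARB1 averaged 10.9 ± 0.559 CPM after ADARB1 siRNA and 32.6 ± 1.1 CPM in siNC (SD, n = 3 each). On the log2 scale the change was -1.58 ± 0.07, with an adjusted p of 2.2e-10 by edgeR's quasi-likelihood test. That left 33.4% of the control level (95% confidence interval 30.1 to 37%), which rested on 443 to 662 counts per knockdown library. In this comparison 4.61% of tested genes were called and 2.51% were lower. ADARB1 ranked 2nd by p and 203rd by the size of the fall. Measured per library against the siNC mean, ADAR fell by 2.02 ± 0.12 and ADARB1 by 1.58 ± 0.07 on the log2 scale under their own siRNAs (SD, n = 3 each). The 2 sets of 3 values did not overlap, and the exact permutation p of 0.1 (two-sided) is the smallest that 3 against 3 can give.

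**Figure D1:**
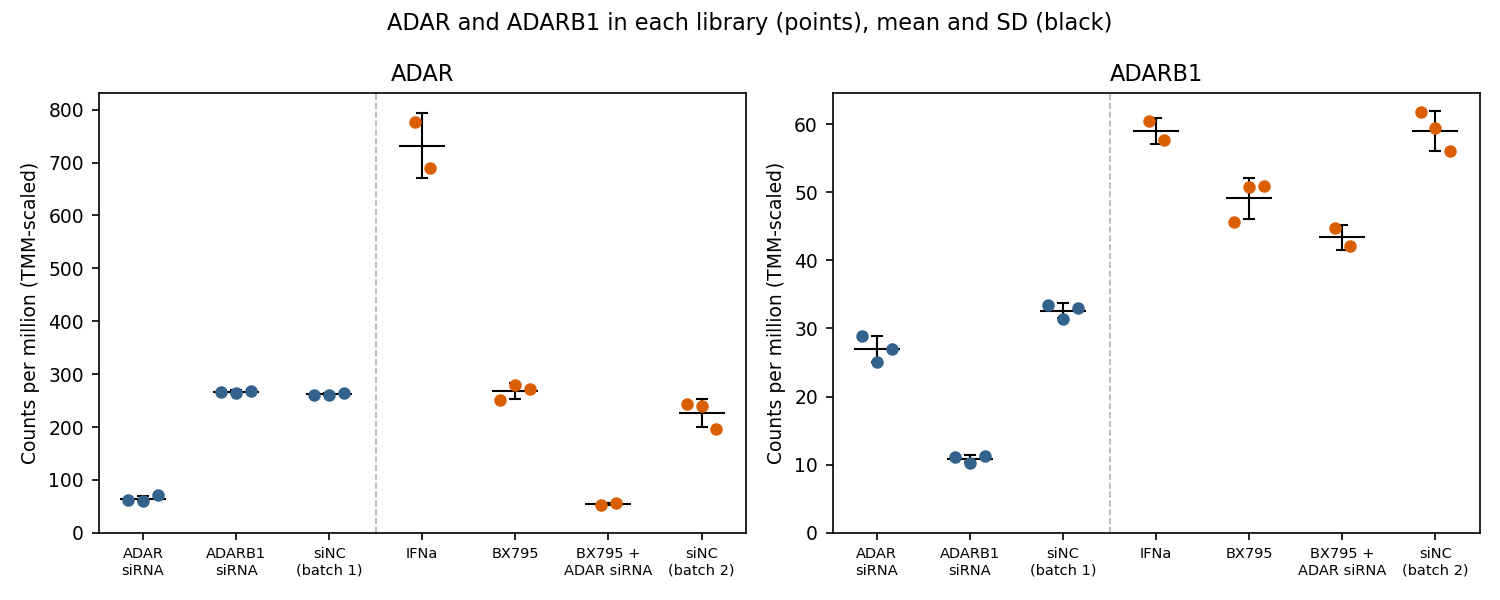
Each point is 1 library, the y axis gives TMM-scaled CPM from 0, the black bar is the group mean with its SD, blue is batch 1 and orange is batch 2. ADAR was 60.6 to 70.6 CPM after ADAR siRNA, 52.5 and 55.8 CPM with BX795 and ADAR siRNA, 689 and 776 CPM after IFNa and 196 to 280 CPM in the other 4 groups. ADARB1 was lowest after ADARB1 siRNA at 10.3 to 11.3 CPM, and its controls stood at 31.4 to 33.5 CPM in batch 1 and 56 to 61.8 CPM in batch 2.

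The cross effects were not alike. ADAR did not pass the test after ADARB1 siRNA, at 267, 264 and 269 CPM against 260, 261 and 264 CPM in siNC. The values of the groups met at 264 CPM. A log2 fold change of 0.03 ± 0.08 had a 95% confidence interval of -0.14 to 0.19, or 90.9 to 114% of control, and an adjusted p of 0.936. ADARB1 fell a little after ADAR siRNA, to 28.9, 25.1 and 27 CPM, against 33.5, 31.4 and 33 CPM in siNC. Every ADAR siRNA library was below every control. That was a log2 fold change of -0.27 ± 0.07, which left 82.8% of the control level, with an adjusted p of 0.00694 by edgeR's quasi-likelihood test. The call ended without TMM scaling (log2 fold change -0.21, adjusted p 0.0755) and without ADAR siRNA replicate 2 (-0.22, adjusted p 0.0506).

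Set against each other, the knockdowns differed in both genes. ADAR was lower after ADAR siRNA than after ADARB1 siRNA by a log2 fold change of -2.05 ± 0.08 (adjusted p 1.16e-11). ADARB1 was higher after ADAR siRNA than after ADARB1 siRNA by 1.31 ± 0.07 (adjusted p 4.46e-10). Between these groups 19.5% of tested genes were called, 9.9% higher and 9.64% lower after ADAR siRNA.

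The ADAR knockdown was also made in cells given BX795. ADAR stood at 52.5 and 55.8 CPM with BX795 and ADAR siRNA, against 252, 280 and 272 CPM with BX795 alone. Both knockdown libraries were below all others of their batch. The fall was -2.31 ± 0.1 on the log2 scale, which left 20.2% (95% confidence interval 17.5 to 23.3%), with an adjusted p of 1.41e-10 by edgeR's quasi-likelihood test. Of all tested genes 9.52% were called here and 4.46% were lower, and ADAR had the smallest p of all. Against siNC of the same batch, the same libraries gave -2.07 ± 0.1 (adjusted p 1.02e-10), where 40.3% of tested genes were called, 21.4% higher and 18.9% lower. These comparisons share the libraries of BX795 with ADAR siRNA. The fall under BX795 differed from the fall without it by -0.29 ± 0.12 (95% confidence interval -0.54 to -0.04). With an adjusted p of 0.266 that difference, which crosses the batches, did not pass a test that 3.42% of genes passed (1.42% with a higher and 2% with a lower value under BX795).

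ADARB1 under BX795 with ADAR siRNA was 44.7 and 42.1 CPM, against 45.6, 50.8 and 50.9 CPM with BX795 alone. The groups did not overlap, but the nearest values were less than 1 CPM apart. The log2 fold change of -0.18 ± 0.08 had an interval of -0.34 to -0.02 and an adjusted p of 0.17, so it did not pass the test. The test was passed by DESeq2 (-0.22, adjusted p 0.0381) and by edgeR without BX795 replicate 1 (-0.27, adjusted p 0.0436). Against siNC of the batch at 61.8, 59.4 and 56 CPM, ADARB1 fell by 0.45 on the log2 scale, with an SE of 0.08 and an adjusted p of 0.000194. With the GC trend of each library removed that change was -0.29 (edgeR adjusted p 0.00676). The fall of ADARB1 with ADAR siRNA was not found to differ with and without BX795 (0.09 ± 0.1, adjusted p 0.78, 95% confidence interval -0.12 to 0.31).

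**Figure D2:**
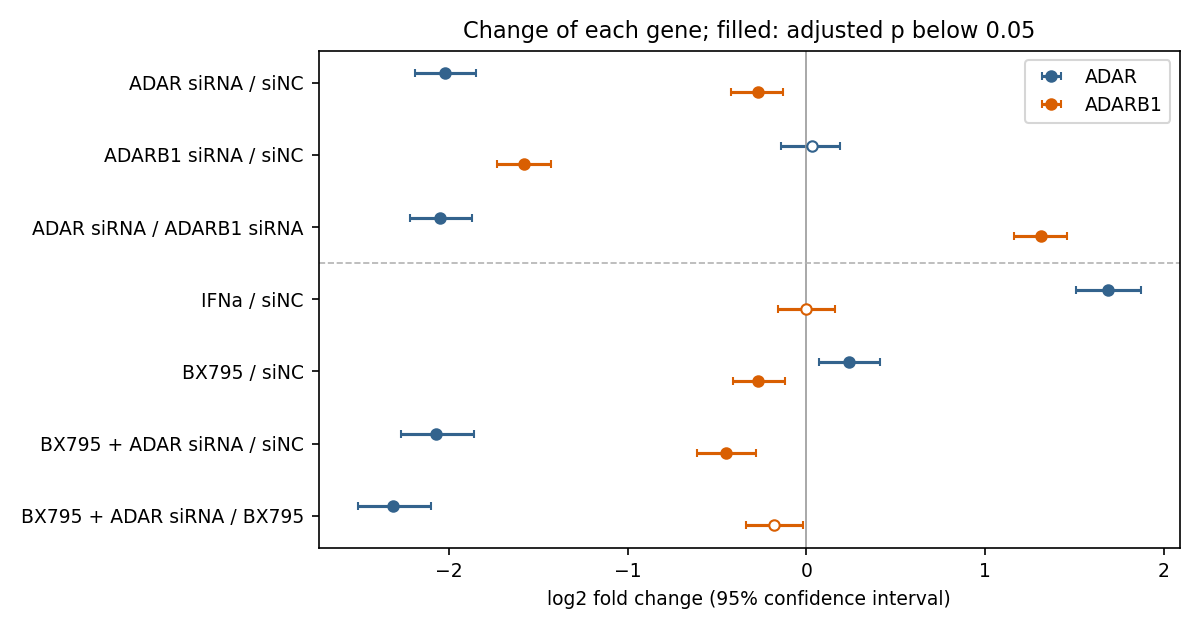
Each point is a log2 fold change with its 95% confidence interval on the x axis, blue for ADAR and orange for ADARB1, filled where the adjusted p was below 0.05, and the dashed line parts the batches. ADAR lay at -2.02 and -2.31 under its own siRNA and at 1.69 after IFNa. ADARB1 lay at -1.58 under its own siRNA and at 0 after IFNa.

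IFNa raised ADAR and left no detectable change in ADARB1. Both batch 2 treatments and both batch 1 knockdowns share the siNC libraries of their batch, so their fold changes are not independent. ADAR stood at 776 and 689 CPM after IFNa, against 244, 240 and 196 CPM in siNC. The lower IFNa library was still far above the highest control. ADAR averaged 732 ± 61.6 CPM after IFNa (SD, n = 2) and 227 ± 26.7 CPM in siNC (SD, n = 3). The log2 fold change was 1.69 ± 0.09, a 3.23-fold level (95% confidence interval 2.84 to 3.66), with an adjusted p of 1.21e-10 by edgeR's quasi-likelihood test. That fit shares its spread over both batches. A fit of the compared groups alone gave 1.68 ± 0.14 (adjusted p 0.000157). In this comparison 34.3% of tested genes were called and 18.4% were higher. ADAR ranked 35th by p and 367th by the size of the rise.

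ADARB1 stood at 60.4 and 57.7 CPM after IFNa, against 61.8, 59.4 and 56 CPM in siNC. The IFNa libraries lay within the range of the controls. The log2 fold change was 0 ± 0.08 with an adjusted p of 0.997, and the 95% confidence interval ran from 89.4 to 112% of control. Its sign was not stable, since it was 0.06 without TMM scaling and 0.11 with the GC trend removed.

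The genes around ADAR in the interferon pathway give the scale of this response. Of all tested genes 18.4% were called higher and 15.9% lower after IFNa, the shares to set beside the counts below. Of 30 interferon-stimulated effector genes, all 30 rose with IFNa, with a median log2 fold change of 3.48 beside -0.02 over all tested genes, and 25 of them rose further than ADAR. MX1, a GTPase that blocks viruses, reached 736 CPM after IFNa, against 14.5 CPM in siNC (5.67 ± 0.17). Of 13 double-stranded RNA sensors and relay genes, 10 rose and 2 fell (median 1.84), and 7 exceeded ADAR. Those that fell, named after their values were seen, were MAVS, the adaptor of the RNA sensors, at -1.17 ± 0.11 and the transcription factor IRF3 at -0.68 ± 0.14, whose call ended without IFNa replicate 1 (adjusted p 0.0761). Of the sensors that rose, OAS2, which makes the activator of RNase L, rose by 5.32 ± 0.13. Of 11 genes of the interferon receptor, its kinases and its transcription factors, 6 rose and 4 fell (median 0.22), and 4 exceeded ADAR. The falls, also named after their values were seen, were the receptor chains IFNAR1 (-0.57 ± 0.07) and IFNAR2 (-0.63 ± 0.09), the kinase TYK2 (-0.38 ± 0.11) and the inhibitor SOCS1 (-0.82 ± 0.2). TYK2 was at 0.04 and SOCS1 at -0.04 with the GC trend removed. Both calls ended without IFNa replicate 1, at adjusted p 0.152 for TYK2 and 0.132 for SOCS1, and that of TYK2 also without siNC replicate 2. Among those that rose, the transcription factor IRF9 was at 2.5 ± 0.1 and the feedback inhibitor USP18 at 2.97 ± 0.13, each with an adjusted p of 8.14e-12 or less.

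**Figure D3:**
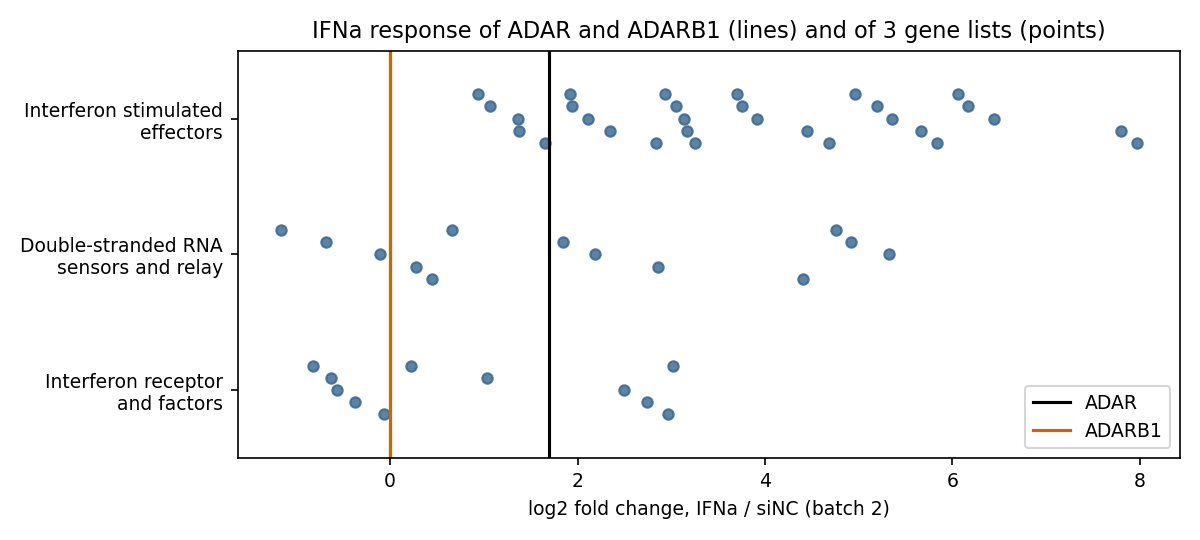
Each blue point is 1 gene of an interferon list placed by its log2 fold change between IFNa and siNC on the x axis, the black line is ADAR at 1.69 and the orange line is ADARB1 at 0. To the right of ADAR lie 25 of 30 effectors, 7 of 13 sensors and relay genes and 4 of 11 receptor and factor genes.

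BX795 alone moved both genes slightly and in opposite directions, and neither call was stable. ADAR was 252, 280 and 272 CPM with BX795, against 244, 240 and 196 CPM in siNC. The groups did not overlap, and siNC replicate 3 was well below the other controls. This was a log2 fold change of 0.24 ± 0.08 (adjusted p 0.0189), in a comparison where 47.1% of tested genes were called and 23.4% were higher. It fell to 0.16 without siNC replicate 3 (adjusted p 0.0983) and to 0.21 without BX795 replicate 2 (adjusted p 0.0756), and the test was then missed. Fits of the batch alone and of the compared groups alone missed it too, at adjusted p 0.0799 and 0.113.

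ADARB1 was 45.6, 50.8 and 50.9 CPM with BX795, against 61.8, 59.4 and 56 CPM in siNC. Every BX795 library was below every control. The log2 fold change was -0.27 ± 0.07 (adjusted p 0.00416), and 23.7% of tested genes were lower here. With the GC trend of each library removed it was -0.08 (adjusted p 0.379), and ADARB1's longest transcript has a GC content of 53.1%, against 49.3% for ADAR. In BX795 cells 9 of the 30 interferon-stimulated genes were higher than in siNC and 10 were lower, beside 23.4% and 23.7% of tested genes. Their median was -0.13 beside -0.01 over all genes. With the GC trend removed 5 were higher.

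The balance of the enzymes can be read within each library as the ratio of ADAR to ADARB1 in CPM per kilobase of exon union. It was 2.25, 2.5 and 2.71 after ADAR siRNA, 25, 26.7 and 24.6 after ADARB1 siRNA, and 8.05, 8.63 and 8.29 in siNC of batch 1. The 3 groups were wide apart, and ADAR exceeded ADARB1 even where it was knocked down. In batch 2 the ratio was 13.3 and 12.4 after IFNa, 5.72, 5.71 and 5.54 with BX795, 1.22 and 1.37 with BX795 and ADAR siRNA, and 4.1, 4.2 and 3.63 in siNC. No group of batch 2 overlapped another. With BX795 and ADAR siRNA the genes were nearest to equal. The siNC ratios of the batches differed, and mean ADARB1 levels were 3.25 CPM per kb in siNC of batch 1 and 5.87 in siNC of batch 2, which is why groups were set only against controls of their own batch.

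On the log2 scale the ratio differed from siNC by -1.75 after ADAR siRNA, by 1.61 after ADARB1 siRNA, by 1.69 after IFNa and by 0.51 with BX795. Between BX795 with ADAR siRNA and BX795 alone it differed by -2.13. Each of these has an exact permutation p of 0.1 (two-sided), the smallest that these group sizes allow. Leaving out any 1 library kept every one of these differences on its side of 0, the smallest being 0.45 for BX795.

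**Figure D4:**
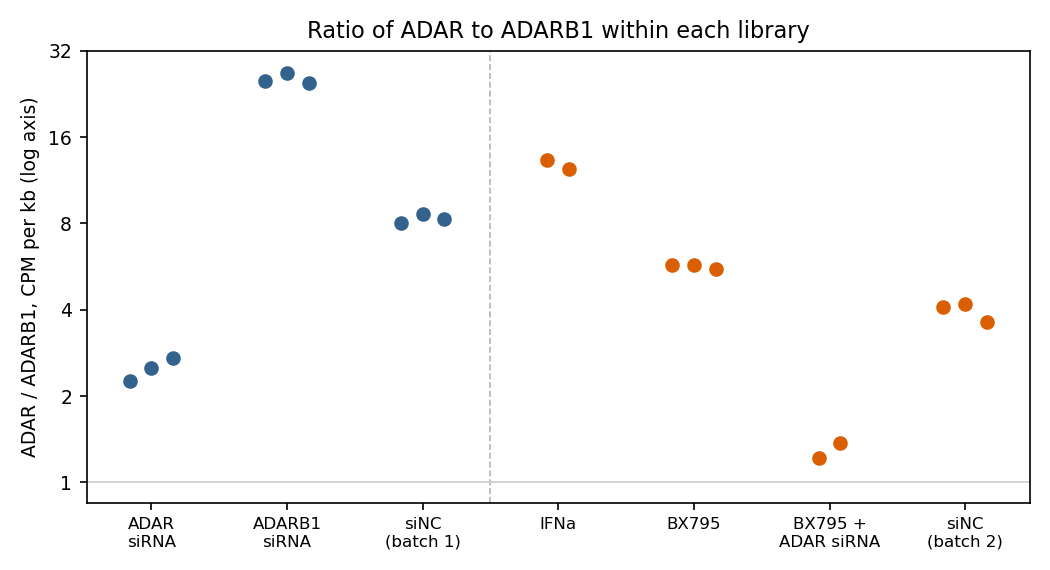
Each point is the ratio of ADAR to ADARB1 in 1 library, both in CPM per kilobase, on a log axis, blue for batch 1 and orange for batch 2. The ratio ran from 1.22 with BX795 and ADAR siRNA to 26.7 after ADARB1 siRNA, and every library lay above 1.

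Of 6 other deaminase genes 4 were tested. ADARB2, a brain relative with no known editing activity, had 51 to 530 counts per library, and ADAT1, ADAT2 and ADAT3, which deaminate adenosine in transfer RNA, were tested too, and ADAT1 had the highest level at a mean of 28.3 CPM. ADAD1 and ADAD2 had at most 3 counts and were not. After ADAR siRNA 1 of the 4 tested genes fell and 0 rose (median -0.09), beside 10.8% of all tested genes lower and 11% higher. The number that rose was 1 with the GC trend removed, in the compared groups alone and in the batch alone. The gene that fell was ADARB2, at 5.21 CPM after ADAR siRNA and 7.66 CPM in siNC, a log2 fold change of -0.55 ± 0.14 (adjusted p 0.00608). After ADARB1 siRNA none of the 4 was called, beside 4.61% of tested genes, though 1 was higher with the GC trend removed, and ADARB2 was at 0.06 ± 0.13. Between the siRNAs it was -0.61 ± 0.14 (adjusted p 0.00327).

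In batch 2, 2 of the 4 relatives rose with IFNa and 1 fell, beside 18.4% of tested genes higher and 15.9% lower. ADAT2, the catalytic subunit of the wobble-base deaminase, had 11.9 CPM after IFNa and 7.67 CPM in siNC (0.62 ± 0.14, adjusted p 0.00229). ADAT3, its partner subunit, had 6.28 CPM after IFNa and 11.2 CPM in siNC (-0.84 ± 0.27, adjusted p 0.021). ADAT1 had 29.7 CPM after IFNa and 24.9 CPM in siNC (0.25 ± 0.08, adjusted p 0.0264). The call of each ended without IFNa replicate 1, where adjusted p reached 0.0638 for ADAT2, 0.376 for ADAT3 and 0.205 for ADAT1. The calls of ADAT1 and ADAT3 also ended without siNC replicate 3, and that of ADAT3 without siNC replicate 2. With the GC trend removed ADAT3 was 0.07 after IFNa. With BX795, 1 relative rose and 2 fell, beside 23.4% of tested genes higher and 23.7% lower, with ADAT2 at 0.4 ± 0.13, ADAT3 at -1.32 ± 0.24 and ADARB2 at -0.41 ± 0.16 on the log2 scale. Removing the GC trend gave 0.02, 0.01 and -0.1, none of which passed the test. The ADARB2 call also ended without BX795 replicate 1 or 2 and without siNC replicate 2 or 3 (adjusted p up to 0.274), and the ADAT2 call without siNC replicate 2 (adjusted p 0.0845).

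Of 18 genes for proteins that carry, modify, stabilise or partner the editing enzymes, 17 were tested. After ADAR siRNA 2 rose and 3 fell, beside 11% of tested genes higher and 10.8% lower (median 0.02 beside -0.02 over all genes). In the compared groups alone and in the batch alone 4 rose. STAU1, which binds double-stranded RNA and directs transport and decay of messenger RNA, had 63.4 CPM after ADAR siRNA and 103 CPM in siNC (-0.69 ± 0.07, adjusted p 1.27e-06). STAU1 fell in the BX795 pair as well, with 47.6 CPM with BX795 and ADAR siRNA and 75.7 CPM with BX795 alone (-0.67 ± 0.08, adjusted p 3.86e-05). WWP2, a ubiquitin ligase reported to lower ADARB1 protein, fell by 0.42 on the log2 scale after ADAR siRNA, with an SE of 0.07 and an adjusted p of 0.000146. ILF2, a double-stranded RNA-binding partner, rose by 0.25 ± 0.05 after ADAR siRNA (adjusted p 0.00111). The other changes of the list, named after their values were seen, were a rise of the helicase gene DHX9 (0.31 ± 0.07) and a fall of DICER1, which cuts microRNA precursors (-0.36 ± 0.09). The DICER1 call ended without TMM scaling (adjusted p 0.0626). In the BX795 pair 2 genes of the list rose and 1 fell, beside 5.06% of tested genes higher and 4.46% lower. The rises were ILF2 at 0.28 ± 0.06 (adjusted p 0.00366) and AIMP2, a protein of the tRNA synthetase complex, at 0.3 ± 0.07 (adjusted p 0.0144). The calls of ILF2 and AIMP2 ended without BX795 replicate 3 and without either replicate of BX795 with ADAR siRNA, with adjusted p up to 0.0953 for ILF2 and 0.264 for AIMP2.

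After ADARB1 siRNA 1 of the 17 rose and 2 fell, beside 2.1% of tested genes higher and 2.51% lower. In the compared groups alone 2 rose and 4 fell, and in the batch alone 3 rose and 4 fell. TNPO1, an import receptor that carries ADAR into the nucleus, had 138 CPM after ADARB1 siRNA and 204 CPM in siNC (-0.56 ± 0.12, adjusted p 0.0101). Without ADARB1 siRNA replicate 1 the adjusted p of TNPO1 was 0.0502. DHX9 was at 0.29 ± 0.07 (adjusted p 0.0136) and the RNA stabiliser ELAVL1 at -0.34 ± 0.08 (adjusted p 0.0226). Both calls ended without ADARB1 siRNA replicate 1 and without siNC replicates 1 and 2, that of DHX9 also without ADARB1 siRNA replicate 2, and that of ELAVL1 also without ADARB1 siRNA replicate 3 or siNC replicate 3. The highest adjusted p was 0.0773 for DHX9 and 0.125 for ELAVL1.

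After IFNa 9 of the 17 rose and 1 fell (median 0.24), beside 18.4% of tested genes higher and 15.9% lower, but without IFNa replicate 1 and in the compared groups alone the number that rose was 3. FMR1, an RNA-binding protein that partners ADAR, rose by 0.8 ± 0.11 (adjusted p 4.76e-05), and the ribosomal protein gene RPS14 was the one that fell, with -0.63 ± 0.1 (adjusted p 0.000206). With BX795 10 rose and 4 fell, beside 23.4% and 23.7% of tested genes, and with the GC trend removed 4 rose. Without BX795 replicate 2 the counts were 6 and 2, and without BX795 replicate 1 or 3 the number that fell was also 2. The nuclear importer gene KPNA3 had 84.1 CPM with BX795 and 43.2 CPM in siNC (0.95 ± 0.15, adjusted p 7.81e-05). FMR1 at 0.55 ± 0.1 was called with BX795 and came to 0.04 with the GC trend removed. Of the 4 lower genes, RPS14 was at -0.42 and ILF2 at -0.14, both named after their values were seen. The ILF2 call ended when any 1 BX795 library was left out and without siNC replicate 1 or 3 (adjusted p up to 0.158).

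The knockdown of ADAR went with a rise of interferon genes, the pathway that itself raises ADAR. After ADAR siRNA 28 of 30 interferon-stimulated genes rose and 0 fell, with a median of 1.79 beside -0.02 over all tested genes. Of all tested genes 11% were higher and 10.8% lower. MX1 had 143 CPM after ADAR siRNA and 11.6 CPM in siNC (3.61 ± 0.15). Of the 13 sensors and relay genes 8 rose and 1 fell (median 0.52), and of the 11 receptor and factor genes 6 rose and 0 fell (median 0.4). The fall was MAVS (-0.3 ± 0.1, adjusted p 0.035), named after its value was seen, and it was lost when any 1 of the 6 libraries was left out (adjusted p up to 0.113). IRF9 rose by 1.61 ± 0.09 and USP18 by 1.06 ± 0.11. After ADARB1 siRNA 2 of the 30 were higher and 1 lower (median -0.06), beside 2.1% of tested genes higher and 2.51% lower. They were IFITM3 at 0.35, IFI44L at 0.82 and IFIT1 at -0.58. Leaving out any 1 of the 3 ADARB1 siRNA libraries, or siNC replicate 1 or 3, ended the calls of IFITM3 and IFIT1. That of IFI44L ended likewise except without ADARB1 siRNA replicate 1, and that of IFIT1 ended also without siNC replicate 2 (adjusted p up to 0.157). In the BX795 pair 13 of the 30 rose with ADAR siRNA and 1 fell (median 0.44), beside 5.06% of tested genes higher and 4.46% lower. The number that rose was 7 or 8 without BX795 replicate 2 or 3 or without either library of BX795 with ADAR siRNA, and 23 with the GC trend removed. The fall was TRIM22 at -0.27 (adjusted p 0.015), named after its value was seen, and its call ended without BX795 replicate 2 and without the first library of BX795 with ADAR siRNA (adjusted p up to 0.144). Other cell markers moved too. After ADAR siRNA all 6 tested biliary markers rose, with a summed level of 1071 to 1106 CPM against 541.7 to 588 CPM in siNC, but 3 of 6 without ADAR siRNA replicate 2. Hepatocyte markers summed to 57320 to 61200 CPM after ADAR siRNA, against 75710 to 81490 CPM in siNC, with 2 of 12 higher and 6 lower. The higher ones were CYP3A4 (2.24 ± 0.11) and CYP2E1 (0.33 ± 0.08), both drug-metabolising enzymes. After ADARB1 siRNA 4 of 12 hepatocyte markers were lower, beside 2.51% of tested genes. The count was 2 when any 1 ADARB1 siRNA library or siNC replicate 1 or 2 was left out, and 7 in the compared groups alone and in the batch alone. Of 6 biliary markers 2 were higher, and 1 without ADARB1 siRNA replicate 1 or siNC replicate 1 or 2. The part of cell makeup in these results was not tested.

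Genes that follow ADAR were sought by the root mean square difference of their log2 CPM from that of ADAR, each set to the siNC mean of its batch, among 10105 genes with at least 10 CPM. Over the 14 libraries without ADAR siRNA, the nearest were ZNFX1 at 0.0665, LAP3 at 0.0725, IFI16 at 0.0993, SP100 at 0.0997 and TRIM21 at 0.127. A gene that never changed would score 0.656, and the median gene scored 0.654. ZNFX1 is a helicase-domain RNA sensor, LAP3 an aminopeptidase, IFI16 a DNA sensor, SP100 a nuclear body protein and TRIM21 an antibody receptor with ubiquitin ligase activity. The score rests mainly on the 2 IFNa libraries, where ADAR stood 1.78 and 1.61 above its siNC mean on the log2 scale. In the BX795 libraries ADAR stood 0.16 to 0.31 above it. The score used the IFNa and BX795 libraries, so the values of the 5 genes there are a description. After IFNa the 5 genes stood at log2 fold changes of 1.58 to 1.73, beside 1.69 for ADAR.

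ADAR siRNA libraries were not used to pick these genes. There, all 5 rose while ADAR fell, beside 11% of tested genes higher and 10.8% lower. Of the 30 interferon-stimulated genes 28 rose there too, so the rise was not particular to these 5. TRIM21 rose by 0.98 ± 0.1 (adjusted p 1.42e-06), IFI16 by 0.74 ± 0.12 (adjusted p 0.000196) and ZNFX1 by 0.58 ± 0.08 (adjusted p 2.37e-05). SP100 rose by 0.45 ± 0.1 (adjusted p 0.00335) and LAP3 by 0.35 ± 0.09 (adjusted p 0.00806). With BX795 and ADAR siRNA against BX795 alone none of the 5 was called by edgeR, beside 9.52% of tested genes. TRIM21 was then at 0.32 (adjusted p 0.107), ZNFX1 at 0.25 (adjusted p 0.084), SP100 at 0, LAP3 at -0.09 and IFI16 at -0.12. TRIM21 passed the test there with the GC trend removed (0.33, adjusted p 0.0323). Over all 19 libraries, where the knockdown enters the score, the nearest to ADAR were TDO2 at 0.48, CXCL13 at 0.577, CYP2C8 at 0.639, SLC17A4 at 0.649 and WSB2 at 0.651. In that search a gene that never changed would score 1.19 and the median gene scored 1.23. Both are above those of the first search, so the scores of the searches are not on the same scale.

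**Figure D5:**
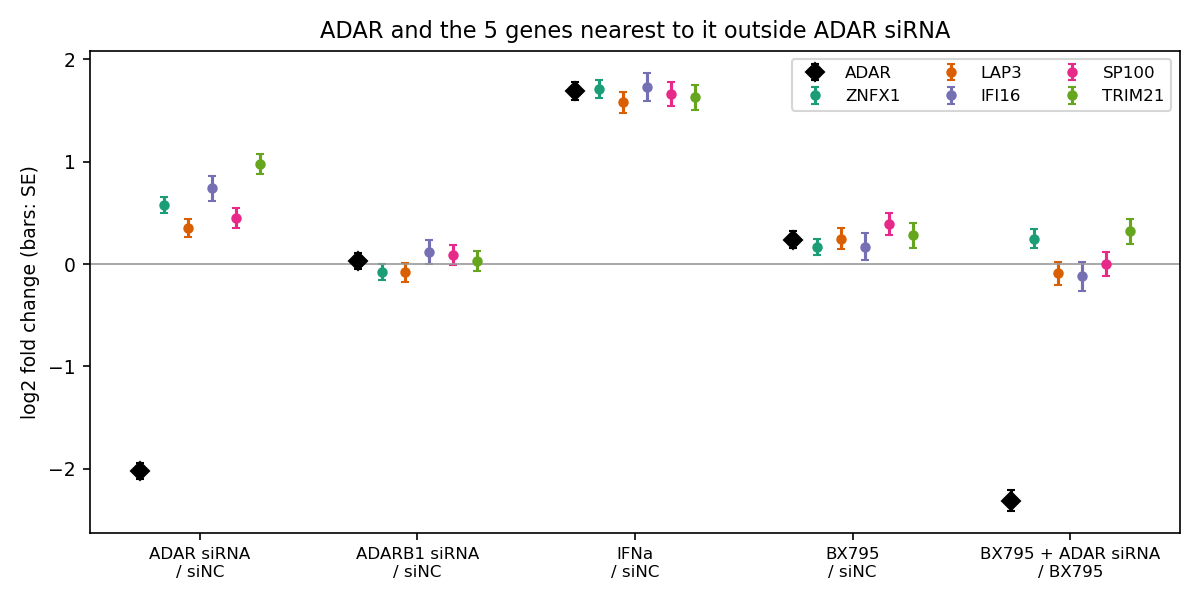
The y axis gives log2 fold changes with SE bars for ADAR (black diamonds) and the 5 genes nearest to it over the 14 libraries without ADAR siRNA (circles), in 5 comparisons. All 6 genes lie between 1.58 and 1.73 after IFNa, whereas after ADAR siRNA ADAR lies at -2.02 and the others between 0.35 and 0.98.

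For ADARB1, the same search over the 16 libraries without ADARB1 siRNA gave, among its 5 nearest genes, CHERP at 0.0696, HERC2P9 at 0.0757, TMEM214 at 0.0812 and SLC20A2 at 0.0863. A flat gene would score 0.235 and the median gene scored 0.399, so likeness to ADARB1 separates genes less than likeness to ADAR. HERC2P9 is a pseudogene whose reads may be shared with its near-identical copies, so its count is uncertain. In the ADARB1 siRNA libraries, which the score did not use, SLC20A2, a phosphate transporter, fell by 0.48 on the log2 scale with an SE of 0.05 and an adjusted p of 2.11e-05. HERC2P9 was higher at 0.94 ± 0.2 (adjusted p 0.00785), a call that ended without siNC replicate 2 (adjusted p 0.0553). CHERP at 0.18 (adjusted p 0.129) and TMEM214 at 0.09 (adjusted p 0.505) did not pass edgeR's test. CHERP passed DESeq2's (0.17, adjusted p 0.047). ADARB1 itself was at -1.58 there. Over all 19 libraries the nearest were ATOH8 at 0.324, SZRD1 at 0.356, KLC2 at 0.367, ENAH at 0.385 and DLAT at 0.385, where a flat gene would score 0.664.

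Protein-coding genes within 200 kb of the targets were looked at beside them. Of 6 annotated near ADAR, 4 were tested, and after ADAR siRNA 1 of these was lower and 0 higher, beside 10.8% of all tested genes lower and 11% higher. It was IL6R, the interleukin 6 receptor, at -0.4 ± 0.06 (adjusted p 6.35e-05). After ADARB1 siRNA none of the 4 was called by edgeR. IL6R was lower and the ubiquitin-conjugating gene UBE2Q1 higher after IFNa, at -0.36 and 0.29, beside 15.9% of tested genes lower and 18.4% higher. With BX795 they were at -0.28 and 0.2, beside 23.7% lower and 23.4% higher. The compared groups alone ended the IFNa calls of IL6R (edgeR adjusted p 0.0851) and UBE2Q1 (0.165). They also ended the BX795 call of UBE2Q1 (0.146). The batch alone ended both UBE2Q1 calls (0.0505 and 0.0887), and no filter ended that of IL6R with BX795 (0.0518). The UBE2Q1 call after IFNa ended without IFNa replicate 1 (adjusted p 0.0529). In the BX795 pair UBE2Q1 was at 0.2 (adjusted p 0.0451), and the call ended when any 1 of the 5 libraries was left out (adjusted p up to 0.501).

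Of 5 tested genes near ADARB1, 2 were higher after ADARB1 siRNA and 0 lower, beside 2.1% of tested genes higher. They were POFUT2, a protein fucosyltransferase, at 0.38 ± 0.08 (adjusted p 0.0065) and PTTG1IP at 0.34 ± 0.08 (adjusted p 0.0146). The PTTG1IP call ended without ADARB1 siRNA replicate 1 or 2 and without siNC replicate 1 or 3, with adjusted p up to 0.0823. After ADAR siRNA 3 were higher and 0 lower, beside 11% of tested genes higher, with the integrin gene ITGB2 at 0.61, SLX9 (FAM207A) at 0.57 and PTTG1IP at 0.26. The SLX9 call ended without replicate 2 of either group (adjusted p up to 0.0696), and the PTTG1IP call without replicate 1 or 3 of either (adjusted p up to 0.0802).

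After IFNa, where ADARB1 was at 0, 4 of the 5 were lower, beside 15.9% of tested genes. They were PTTG1IP at -0.51, ITGB2 at -0.53, SLX9 (FAM207A) at -0.94 and COL18A1, a basement membrane collagen, at -1.1. With the GC trend removed ITGB2 was at -0.17 (adjusted p 0.121) and SLX9 at -0.34 (adjusted p 0.0694), and neither passed the test. The SLX9 call ended without IFNa replicate 1 (adjusted p 0.0683). With BX795, where ADARB1 was at -0.27, all 5 were lower, beside 23.7% of tested genes, with PTTG1IP at -0.66, ITGB2 at -0.41, SLX9 at -1.48, POFUT2 at -0.22 and COL18A1 at -1.11. With the GC trend removed POFUT2 was higher with BX795 at 0.26 (adjusted p 0.00242), and ITGB2 at 0.15 and COL18A1 at -0.08 did not pass the test. The POFUT2 call with BX795 also ended without any 1 BX795 library and without siNC replicate 2 (adjusted p up to 0.269).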

How the data were processed

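RNA was sequenced from 19 HepaRG libraries. The table holds expected counts per gene as deposited. STAR, Salmon and GRCh38.p14 are named for it, per the submitters' processing notes, without versions, settings or an annotation release. Of these values 94.82% lay within 0.005 of a whole number, and they were rounded. Symbols were found for 61463 genes by identifier. Genes were tested with edgeR 4.0.16 (R 4.3.3) with its quasi-likelihood F test, following filterByExpr and TMM scaling, in 1 fit of all 19 libraries with a mean per group and 12 residual degrees of freedom. P-values were adjusted by Benjamini-Hochberg over 23121 genes, and a gene was called below 0.05. Levels are CPM on TMM-scaled totals. Promoters came from RefSeq (GRCh38.p14) and gene spans from GENCODE 29. The fits were tested on simulated data.

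The genes named were ADAR and ADARB1, at most 3 called members with the smallest p from each list and comparison, the 5 genes nearest to each in pattern, and called neighbours within 200 kb. ADAR and ADARB1, the lists and the rule were chosen with earlier results of these data known. Some genes that the rule names are not reported here. Alternatives were DESeq2 1.42.0, library totals in place of TMM, no filter, a replicate block, removal of each library's GC trend (GC content known for 87% of tested genes), fits of the batch or compared groups alone, and leaving out each replicate. Leaving libraries out of the ratio, and library totals in the search for nearest genes, were added after seeing the data. Library totals could not change that search, because the scaling of a library cancels between its genes, so this was no check.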

Additional observations from a re-analysis of the deposited data

How the results depend on the processing

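Of the 16 member comparisons, the falls of each target under its own siRNA, the rise of ADAR after IFNa and the fall of ADARB1 with BX795 and ADAR siRNA against siNC kept their direction and call under every alternative run. Leaving out 1 library gave log2 fold changes of -2.09 to -1.97 for ADAR after ADAR siRNA and -1.61 to -1.54 for ADARB1 after ADARB1 siRNA. It gave -2.4 to -2.27 for ADAR with BX795 and ADAR siRNA against BX795, 1.59 to 1.8 for ADAR after IFNa and -0.51 to -0.42 for ADARB1 with BX795 and ADAR siRNA against siNC. That last fall kept its call but shrank to -0.29 with the GC trend removed (edgeR adjusted p 0.00676). In the compared groups alone it was -0.48 (edgeR adjusted p 0.0331). ADARB1 after ADAR siRNA ranged from -0.32 to -0.22 and was -0.21 (adjusted p 0.0755) with library totals. ADARB1 with BX795 and ADAR siRNA against BX795 ranged from -0.27 to -0.16 and was called by DESeq2 at -0.22. ADAR with BX795 ranged from 0.16 to 0.31, with 0.22 in the compared groups alone and 0.23 in the batch alone, both missing the test. ADARB1 with BX795 missed the test with no filter (-0.21, adjusted p 0.098) and with the GC trend removed (-0.08). ADARB1 after IFNa, never called, was 0.06 with library totals, 0.03 with no filter, 0.11 with the GC trend removed and -0.04 to 0.05 with 1 library left out. The difference in ADARB1 between ADAR siRNA with and without BX795, never called, was -0.05 with library totals and -0.01 to 0.14 with 1 library left out. The cause of these changes was not tested. Where an arm of 2 libraries lost 1, the lone library was assumed to vary like the other groups.

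Pairing of the libraries by replicate number was not detected. The check cannot show that they were unpaired, because deviations within a group of 2 libraries are mirror images of each other. Deviations of same-numbered libraries correlated at -0.08 to 0.12 in batch 1 and -0.19 to 0.19 in batch 2. With the replicate number as a block, no call of ADAR or ADARB1 changed, with -2.02 for ADAR after ADAR siRNA, -1.58 for ADARB1 after ADARB1 siRNA and 1.65 for ADAR after IFNa. The block lowered the genes called after ADARB1 siRNA to 686, in the BX795 pair to 1414 and for the difference between the ADAR knockdowns to 459, against 1066, 2201 and 790.

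Numbers of called genes depended more on the fit. DESeq2 called 1663 genes after ADARB1 siRNA and 1211 for the difference. Removing the GC trend gave 1850 after ADARB1 siRNA, 3607 in the BX795 pair and 1356 for the difference. The compared groups alone gave 8112 after ADAR siRNA (main 5042), 3395 after ADARB1 siRNA and 7774 between the siRNAs (main 4518). They gave 2114 after IFNa (main 7932), 4468 for BX795 with ADAR siRNA against siNC (main 9310) and 1058 in the BX795 pair. The batch alone gave 8223, 3632 and 7768 in batch 1, 4705 after IFNa and 758 in the BX795 pair. With 1 library left out the counts ranged from 603 to 708 after ADARB1 siRNA, 2494 to 9623 after IFNa, 4963 to 10438 for BX795 with ADAR siRNA against siNC, 1045 to 1944 in the BX795 pair and 384 to 744 for the difference. Over 86 comparisons of other named genes, 920 alternative values kept direction and call, 148 lost the call, 4 gained it and 10 changed sign. The sign changes were ADAT3 after IFNa (0.07) and with BX795 (0.01), TYK2 after IFNa (0.04), ITGB2 (0.15) and POFUT2 (0.26) with BX795 and SP100 in the BX795 pair (0.06), each with the GC trend removed. In the BX795 pair with 1 library left out, SP100 ranged from -0.23 to 0.12, LAP3 from -0.34 to 0.04 and IFI16 from -0.46 to 0.08. Depth limits weakly expressed genes most, since siNC libraries of batch 2 held 13.1 to 22.8 M counts.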
